A study of Mus musculus with 8 samples.

Results

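The array carried 15604 probes named only by a stretch of an autosome and an orientation letter, F or R, in place of a gene. Probes of this form were taken where Agilent's mark "well above background" held in at least 4 of the 8 samples, which 4959 probes met. One of them lacked a value on an array, so 4958 probes in 2055 intervals were analysed, out of 55681 non-control probes in all. They were read as probes for long intergenic noncoding RNAs, but the files give only the interval, and whether an interval lies between genes or is noncoding could not be checked without an annotation of the same build. All coordinates are mm9, as printed in the probe names, and the files do not say which genomic strand each letter detects.

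Long intergenic noncoding RNAs are transcripts without a recognised protein product that arise outside annotated coding genes. Many were first recognised as chromatin domains with the histone marks of active promoters and transcribed bodies, and arrays then tiled those domains with probes in one or both orientations. As a class they are less abundant and more restricted to particular tissues than messenger RNAs, and a few, such as Malat1 and Neat1, are abundant nuclear RNAs.

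RNA came from frozen cross sections of whole kidney of 4 wild-type mice and 4 mice homozygous for mutant Pus1, the gene of pseudouridine synthase 1, which the series title calls a knockout. Pseudouridine synthases turn uridine into its isomer pseudouridine in tRNA and other RNAs. The mice were 14 to 16 weeks old, on C57BL/6J with 5 generations of backcrossing, and the mutation was homozygous in the mutants with no tissue restriction given in the labels. Each of 4 two-colour arrays held 1 wild-type and 1 mutant mouse of one sex, females for replicates 1 and 2 and males for replicates 3 and 4, with the mutant in Cy5 on arrays 1 and 3 and in Cy3 on arrays 2 and 4. Sex and position on the slide therefore cannot be told apart.

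Of the 55681 probes, 26916 to 30527 were well above background in a sample, and samples correlated by 0.893 to 0.990 over the 4958 interval probes. The normalized log2 intensity of Pus1 itself in replicates 1 to 4 was 10.39, 10.34, 10.003 and 10.34 for wild type, and 7.46, 7.49, 6.92 and 7.36 for mutants. The groups did not overlap, and the log2 ratio was -2.96 ± 0.08 (SE, n = 4 arrays, adjusted p = 0.000334 by limma). All 9 proximal tubule markers and all 5 markers of the thick ascending limb and distal nephron passed the background mark. Fat markers were present too (9 of 10 genes, among them Adipoq and Cidea), and so were all 7 urothelial genes.

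A smaller share of interval probes than of the rest of the array was detected. They passed the mark in 31.8% of cases, against 60.3% of 39487 other non-control probes, and 53.7% of interval probes were well above background in no sample, against 31.2% of the others. At the other end, 3224 interval probes (20.7%) were marked in all 8 samples. F and R probes passed in 30% and 33.6% of cases.

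**Figure D1:**
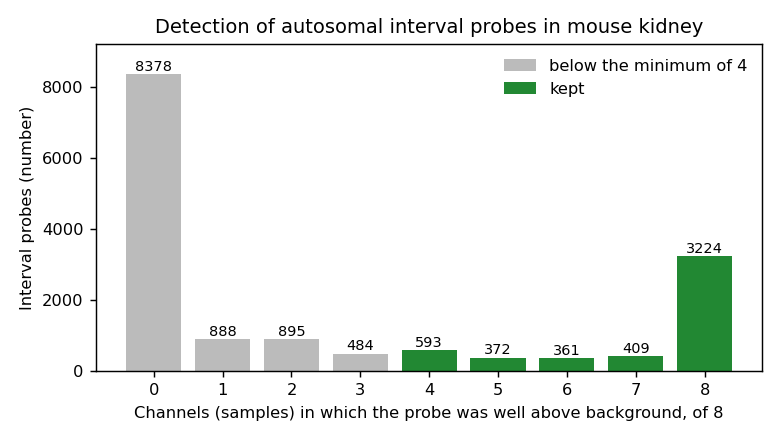
Number of autosomal interval probes (y axis) by the number of samples, of 8, in which Agilent's mark put them well above background (x axis). Most of the 15604 probes were marked in 0 samples (8378) or in all 8 (3224), and the 593 probes marked in exactly 4 samples are the lowest that were kept.

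Probes at the minimum of 4 samples (593) had a median mean log2 intensity of 7.02, with a range of 6.68 to 9.29. Those just below it, with 3 samples (484), had a median of 6.91 and a range of 6.41 to 7.34. The share that passed ran from 24.9% on chromosome 9 to 39.4% on chromosome 19. Over 4 classes of interval length, from the shortest to the longest, it was 27.6%, 33.8%, 32.5% and 31.6%, lowest in the class of the shortest intervals.

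The intervals were of very unequal size, and probes of one interval are not independent of each other. Intervals with a member had a median length of 10401 bases, with a middle range of 1624 to 25798 and extremes of 90 and 533972. A single member stood for 905 intervals, 231 intervals held 5 or more members, and the most was 19. Of the 2055 intervals, 1054 overlapped another such interval, and merging overlaps left 1433 separate loci.

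Orientation was compared in the 1042 intervals designed with both F and R probes. Members were found in F only in 189 of them, in R only in 216, in both in 476 and in neither in 161. In 728 intervals with at least 3 probes of each orientation, 86 had at least 50 percent of the probes of one orientation and none of the other above the minimum, while 76 had at least 50 percent of both. The share of probes that passed was 31.9% in intervals designed in both orientations and 31.5% in those designed in one.

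No interval probe passed the test for genotype. Of all 28956 kept probes, 6 (0.0207%) had an adjusted p under 0.05 by limma, 2 higher (0.00691%) and 4 lower (0.0138%) in mutants, and 0 of these were among the 4958 interval probes. At an unadjusted p under 0.05 there were 201 interval probes (4.05%), against 4.51% of all kept probes. Of these 100 were higher (2.02%, background 2.63%) and 101 lower in mutants (2.04%, background 1.88%). One sign of the ratio on all 4 arrays was found for 416 interval probes (8.39%), against 8.27% of all kept probes. The median log2 ratio of mutant over wild type was -0.00965 for interval probes and -0.00351 for all kept probes. The median SE of an interval probe's ratio was 0.083. In all genotype fits the SE and the limma p rest on the spread between arrays of the same dye orientation. A gap between opposite orientations goes into the dye term and does not widen them.

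One interval on chromosome 6, chr6:83541250-83560425, stood closest to a difference shared by several probes. The design gave it 5 probes, all F, and all 5 were members. Probe A_30_P01033455 measured 11.18, 10.80, 10.74 and 10.80 in the 4 wild-type mice (log2 intensity, by replicate number) and 11.82, 11.44, 11.37 and 11.72 in the mutants. Every mutant lay above every wild-type sample, with a log2 ratio of 0.71 ± 0.08 (SE, n = 4 arrays), yet the adjusted p was 0.181 by limma. Probe A_30_P01025992 was at 11.31, 11.00, 10.79 and 10.64 in wild type and 11.85, 11.54, 11.47 and 11.57 in mutants, again without overlap, with a ratio of 0.67 ± 0.09 (SE, limma adjusted p = 0.306).

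The other 3 probes of the chromosome 6 interval had the same sign on every array. Their log2 ratios were 0.64 for A_30_P01022535 (limma adjusted p = 0.238), 0.58 for A_30_P01024065 (0.319) and 0.35 for A_30_P01027628 (0.977). The samples of A_30_P01022535 did not overlap between genotypes, while those of A_30_P01024065 and A_30_P01027628 did. The ratio of A_30_P01027628 was only 0.01 on array 3 and 0.14 on array 1, against 0.59 on array 2 and 0.65 on array 4. Over the 5 probes the median ratio was 0.54, 0.59, 0.63 and 0.86 on arrays 1 to 4. One sign on all 4 arrays was a condition for naming these probes, so their shared direction is no separate support. The 5 sex differences were small, from -0.38 to -0.15 on the log2 scale, and 0 passed. Among 652 sets of 3 or more members of one interval and orientation, it was the 1 set with every member higher in mutants on every array. In 0 sets was every member lower throughout. This count rests on the same signs by which the probes were named.

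**Figure D2:**
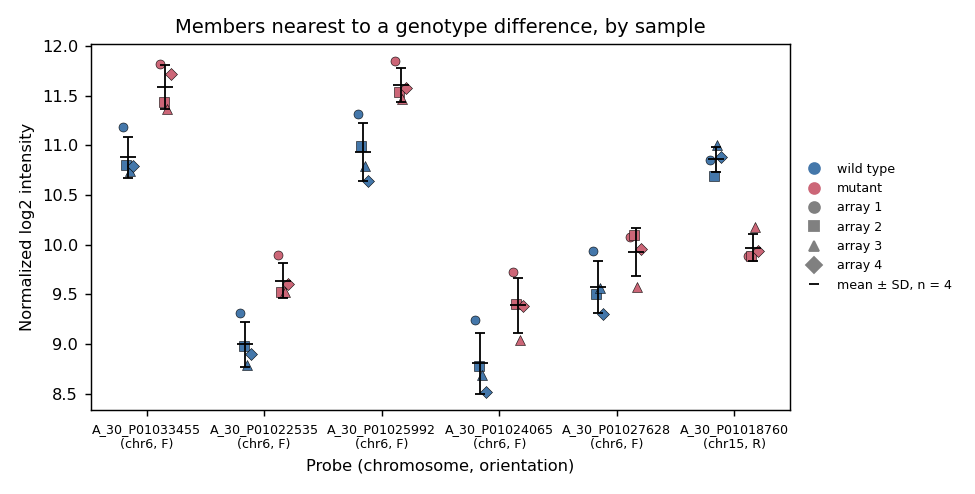
Normalized log2 intensity (y axis) of the 5 F probes of the chromosome 6 interval and the R probe of the chromosome 15 interval (x axis) in each sample, wild type in blue and mutant in red, with 1 symbol per array and bars for the mean and SD of 4 mice. Mutants lie 0.35 to 0.71 higher on average on chromosome 6 and 0.89 lower on chromosome 15, and wild-type and mutant points of A_30_P01024065 and A_30_P01027628 overlap.

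The probe with the smallest genotype p was A_30_P01018760, an R probe of chr15:79764481-79809909. It measured 10.85, 10.69, 11.01 and 10.88 in the wild-type mice and 9.88, 9.89, 10.18 and 9.94 in the mutants. The groups did not overlap, and the log2 ratio was -0.89 ± 0.08 (SE, n = 4 arrays, limma adjusted p = 0.0643). The other 2 R members of that interval had ratios of 0.09 and 0.03, so the difference was seen with 1 probe of 3. With median normalization within arrays or without a filter on dim probes, this probe passed, at an adjusted p of 0.0215 at the lowest over the 13 alternatives tried and 0.589 at the highest.

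The remaining probes named for genotype lay lower. A_30_P01030782, an R probe of chr12:5303823-5379098, had a log2 ratio of -0.36 ± 0.07 (SE, limma adjusted p = 0.870), and its ratios on arrays 1 to 4 were -0.22, -0.49, -0.21 and -0.53. A_30_P01029447, an F probe of chr7:99879368-99889978 that was well above background in 4 of 8 samples, had -0.42 ± 0.09 (adjusted p = 0.977). Of the 4 F members of the chromosome 7 interval, 2 had a positive ratio.

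Genes of the thick ascending limb and distal nephron, fixed as a marker list, also had positive fitted ratios without passing. The median log2 ratio of these 5 genes was 0.69, 0.19, 0.56 and 0.14 on arrays 1 to 4, and 3 of 5 had an unadjusted p under 0.05. Calb1 alone was positive on all 4 arrays. On arrays 1 to 4 Umod had 0.69, 0.02, 0.56 and -0.12, and Slc12a1 had 0.75, 0.09, 0.60 and -0.25. Both were higher on arrays 1 and 3, where the mutant was in Cy5. The log2 of the summed linear levels of the list was 17.16 to 17.81 in wild type and 17.53 to 18.04 in mutants. Umod was the brightest gene of the list and weighs most in this sum. The part of these genes in the interval ratios was not tested.

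The other 3 sets with values of this kind held 3 members with an unadjusted genotype p under 0.05, and were picked out after their values were seen. The 5 F members of chr6:52046805-52072744 had a median log2 ratio of 0.28, the 3 F members of chr6:116123643-116124550 had 0.20, and the 3 R members of chr13:108653722-108654406 had -0.29. In each of these 3 sets some members changed sign between arrays. On chromosome 13 all 3 did, and A_30_P01020161 had 0.19, -1.01, 0.22 and -0.55 on arrays 1 to 4. In chr6:116123643-116124550, A_30_P01021866 alone kept one sign, and A_30_P01026091 had -0.16, 0.44, -0.0015 and 0.53. By chromosome, the share of members at an unadjusted p under 0.05 was highest on chromosome 6 (29 of 337, 8.61%), followed by chromosome 13 (14 of 239, 5.86%).

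Pus1 lies on chromosome 5 of the mouse, but the files give no mm9 position for it, so distance from the mutation could not be measured. Of 355 members on chromosome 5, 17 (4.79%) had an unadjusted genotype p under 0.05, against 184 of 4603 (4%) on the other autosomes. The 4 with the smallest p were F probes, and all had an adjusted p of 0.977 by limma. Their log2 ratios were 0.33 for A_30_P01022310 in chr5:35975265-35982561, 0.44 for A_30_P01020631 in chr5:137411861-137413010, 0.31 for A_30_P01030382 in chr5:115806200-115834425 and -0.26 for A_30_P01018681 in chr5:125861675-125880125. Of these, A_30_P01022310 alone had one sign on all 4 arrays (0.11, 0.42, 0.47 and 0.33).

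Many interval probes differed between males and females. By limma on the array means (2 male and 2 female arrays, 2 mice each), 2220 of 4958 interval probes (44.8%) differed at an adjusted p under 0.05, against 42.1% of all kept probes. In males 1270 were higher (25.6%, background 17.9%) and 950 lower (19.2%, background 24.2%). This count, and that of probes at least 2-fold higher in males, was lower when either female array was left out. Such a fit keeps 1 female array and takes its spread from the male arrays alone. It therefore cannot show which arrays the count rests on. Among the 2220 were 327 probes well above background in 1 sex only, which passed the filter through that sex. Of the interval probes well above background in all 8 samples, 1443 differed (44.8%), against 42% of all probes so marked. These numbers are shares of probes, and overlapping intervals mean that one transcript can be counted several times. Over the 1433 separate loci, 941 held a probe that passed, and 191 held probes of both directions.

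Large differences ran mostly towards males. At 2-fold or more, 433 interval probes passed (8.73%, background 6.76%). Of these 394 were higher in males (7.95%, background 5.42%) and 39 higher in females (0.787%, background 1.34%). Without regard to p, male and female samples did not overlap for 2350 interval probes (47.4%, background 42.2%). Among the 3224 interval probes well above background in all 8 samples the split of all calls turned, with 643 higher (19.9%) and 800 lower (24.8%) in males. Of the 20815 other probes marked in all 8 samples, 14.7% were higher and 26.8% lower in males. The split of 2-fold calls did not turn among the 3224, with 245 (7.6%) higher and 25 (0.775%) lower, against 4.38% and 1.42% of the other probes. Some members were kept through 1 sex alone, so their marks had to differ between the sexes, though not all of them passed the test. Of these, 359 (7.24%) were well above background in all 4 males and in 0 females, and 21 (0.424%) in all 4 females and in 0 males. The shares of all kept probes were 3.07% and 0.304%. Of the 394 and 39 probes with 2-fold differences, 74 and 7 were of this kind, and their differences are measured against a group at background.

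The sex labels were read against 12 genes known to depend on sex hormones in mouse kidney. Of these 6 were higher in males, such as Cyp4b1 of the cytochrome P450 family (log2 difference 3.18) and the cytochrome Cyp2e1 (2.82), and 4 were higher in females, such as the amino acid transporter Slc7a12 (-4.07) and the efflux pump Abcc3 (-4.41). The rest of the 12 did not pass: Kap had -0.04 (limma adjusted p = 0.761) and Slc22a7 had -0.37 (0.054). Among proximal tubule markers, 1 of 9 was higher in males and 4 of 9 higher in females, with log2 differences of at most 1.24 in size. Their part in the interval differences was not tested.

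The largest difference of all members was that of A_30_P01030680, the single probe of chr4:13536908-13593316 R. Its log2 intensity was 12.30, 12.47, 12.49 and 11.78 in the wild-type and then the mutant males, and 6.49, 6.30, 6.49 and 5.95 in the females in the same order. No female sample was well above background, so males were at least 48.9-fold higher (limma adjusted p = 0.000282). The other 7 probes highest in males were well above background in all 8 samples. A_30_P01018083, an F probe of chr1:183951156-183986156, was at 14.21, 14.50, 14.18 and 14.76 in males and 10.39, 10.99, 10.52 and 10.22 in females, a log2 difference of 3.88 ± 0.16 (SE, n = 2 arrays a sex, limma adjusted p = 0.000474).

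The next were A_30_P01017564 in chr3:58118325-58136550 F with a log2 difference of 3.81, A_30_P01025802 in chr9:27153416-27153677 F with 3.73, and A_30_P01021541 in chr15:61984389-62102500 R with 3.58. They were followed by A_30_P01026872 in chr3:34003359-34537330 F with 3.46, A_30_P01020420 in chr10:116814196-116920696 R with 3.43, and A_30_P01030381 in chr17:88225376-88238756 F with 3.35. Lack of overlap between male and female samples was a condition for choosing these 8. All passed under every one of the 13 or 14 alternatives tried for each.

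**Figure D3:**
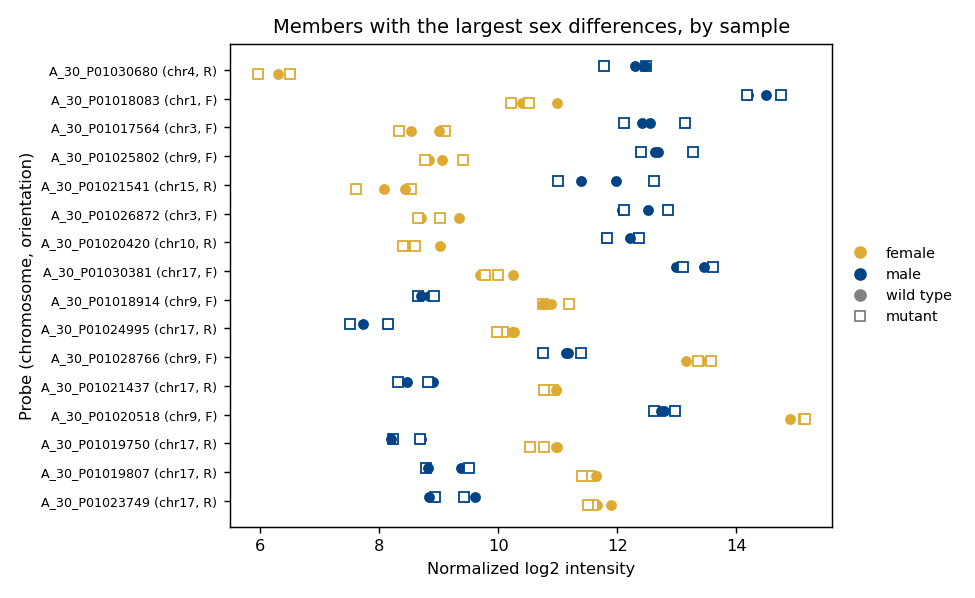
Normalized log2 intensity (x axis) of the 8 members with the largest differences towards males and the 8 towards females (y axis), with males in blue, females in yellow, filled circles for wild type and open squares for mutants. The 16 probes were chosen among those whose male and female points do not overlap.

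Most of these 8 probes stood alone within their own interval. The other 2 F members of chr3:34003359-34537330 had log2 sex differences of -0.27 and -0.52, next to 3.46. The second F member of chr9:27153416-27153677 had 0.01, next to 3.73. The second R member of chr15:61984389-62102500 had -0.33, next to 3.58, and the second R member of chr10:116814196-116920696 had 0.31, next to 3.43. In chr1:183951156-183986156 and chr3:58118325-58136550, 1 of 5 F probes passed the background mark at all.

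**Figure D4:**
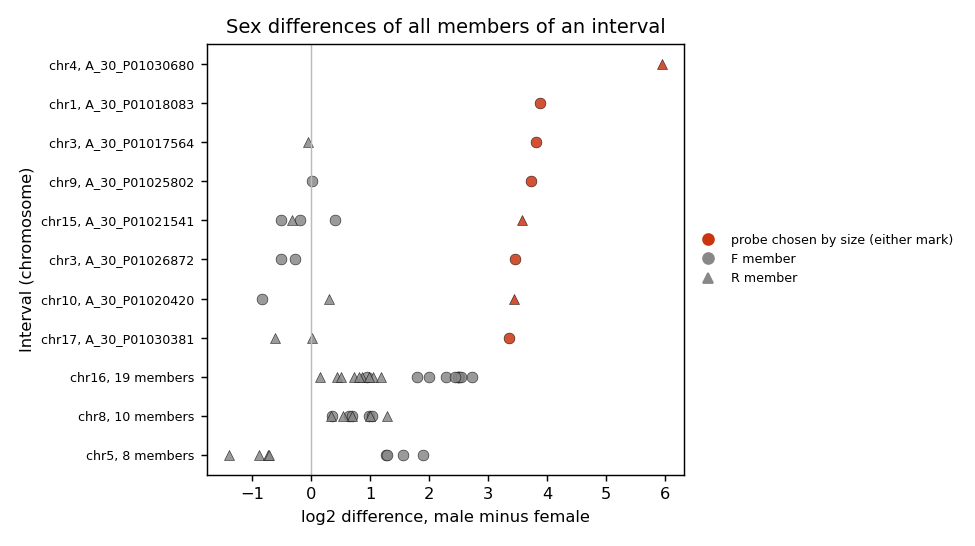
Log2 difference of males minus females (x axis) of every member of 11 intervals (y axis), with circles for F and triangles for R probes and in red the 8 probes named for their size. In the top 8 intervals the red probe lies beyond 3.3 while its neighbours lie between -0.83 and 0.40. On chromosome 16 the F members reach 2.72 together, on chromosome 8 both orientations lie above 0, and on chromosome 5 they lie on opposite sides of 0.

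Over all members, partners with a like difference were common. Of the 394 probes at least 2-fold higher in males, 314 had another member of the same interval and orientation, and the median of those partners was itself at least 2-fold higher in 154, between 0.5 and 1 on the log2 scale in 64, between 0 and 0.5 in 52 and below 0 in 44. Of 7 probes that were at least 8-fold higher and had a partner, the partners were 2-fold higher for 1 and below 0 for 4. Across 3658 members with a partner, a probe's sex difference and the median of its partners correlated by r = 0.566, and the genotype ratios by r = 0.388; these points share the same 8 samples, and intervals overlap, so no p is given. Of the 652 sets of 3 or more members, all members passed as higher in males in 99 and as higher in females in 23, of which 39 and 2 held a member that was at background in the other sex. Members passed in both directions in 71, some passed in one direction in 306, and none passed in 153.

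The 8 probes highest in females came from only 2 places. Of these, 5 were R probes in chr17:32035750-32056000 and in chr17:32044823-32045974, and the second interval of 1152 bases lies wholly inside the first. A_30_P01023749 was at 11.66, 11.89, 11.59 and 11.51 in the wild-type and then the mutant females and at 9.60, 8.83, 9.42 and 8.94 in the males, a log2 difference of -2.47 ± 0.21 (SE, n = 2 arrays a sex, limma adjusted p = 0.00193). The other 4 lay between -2.44 and -2.26, so all 5 R members of this stretch moved by nearly the same amount. The single F member of the larger interval had a log2 difference of -0.34.

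The remaining 3 were F probes on chromosome 9, in chr9:78104935-78116974 and chr9:78107225-78118850, which share 9750 bases. A_30_P01020518 was at 15.12, 14.91, 15.14 and 15.15 in females and 12.79, 12.74, 12.61 and 12.96 in males, a log2 difference of -2.30 ± 0.09 (SE, limma adjusted p = 0.000464). The other 2, A_30_P01028766 and A_30_P01018914, had -2.26 and -2.12. Here the R probes moved as well: the 5 R members of the second interval had a median of -1.14, and 4 of them passed.

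Between the orientations of one interval there was little relation. In the 476 intervals with both F and R members, the medians of F and of R correlated by r = 0.0796 for sex and 0.0898 for genotype, as a description over intervals that share the same 8 samples. They had the same sign in 252 intervals for sex and in 246 for genotype. Without members at background in every sample of a sex, r for sex was 0.0536 over 441 intervals. The median gap between the sex differences was 0.36 on the log2 scale; 301 intervals lay within 0.5 and 60 were more than 1 apart. Both orientations held calls towards males alone in 40 intervals and towards females alone in 47, while 52 had one orientation higher in males and the other in females.

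**Figure D5:**
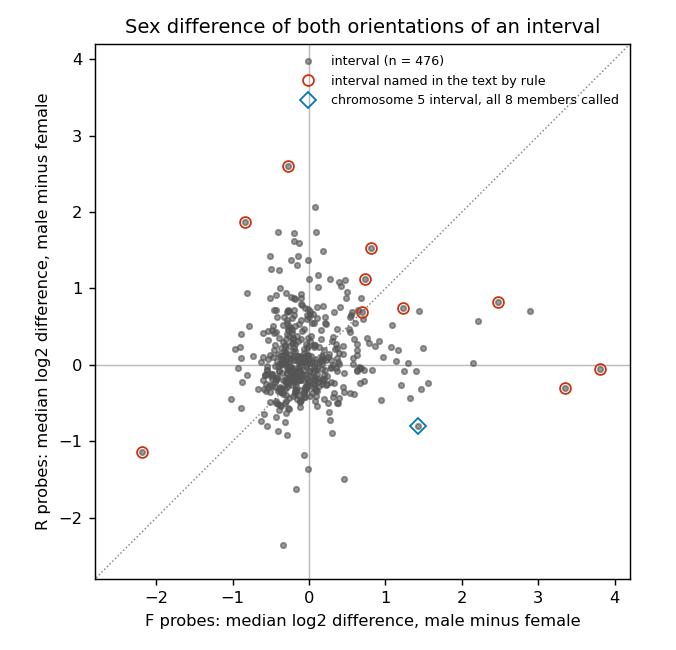
Median log2 difference of males minus females over the F members (x axis) and the R members (y axis) of each of the 476 intervals with both, with red circles around the 10 intervals named by rule, a blue diamond around the chromosome 5 interval and a dotted line of equal differences. Points spread along both axes more than along the dotted line, with r = 0.0796.

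Both orientations moved together in a few intervals with many probes. In chr16:43623581-43642715, the interval with the most members, all 10 F members were higher in males, with a median log2 difference of 2.47 and a range of 0.94 to 2.72. Of its 9 R members 6 passed, also towards males, with a median of 0.82; 1 of the 6 was not well above background in any female. The F probe with the largest difference, A_30_P01020686, was at 14.28, 13.87, 14.34 and 14.02 in the wild-type and then the mutant males and at 11.22, 11.48, 11.65 and 11.27 in the females, so the sexes were far apart and the genotypes were not. In chr8:26343277-26352902 all 5 F and all 5 R members passed as higher in males, but 2 of the F and 1 of the R members were kept through males alone. The other 3 F and 4 R members had medians of 0.98 and 0.85.

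Further intervals chosen for shared direction were chr19:23068397-23190256, where 2 of 4 F and 10 of 10 R members were higher in males (medians 0.73 and 1.13), 1 R member being at background in all females. In chr4:135896689-135918414, 4 of 4 F and 4 of 5 R members passed towards males, but 1 of the F and 3 of the R members were kept through males alone. Without these, 3 of 3 F members and 1 of 2 R members passed (medians 1.55 and 0.42). In chr8:60132300-60146830, 1 of 2 F members was higher in males (median 0.82). Its single R member, A_30_P01022731, was not well above background in any female and was at least 2.34-fold higher in males (limma adjusted p = 0.0173).

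The chromosome 5 interval chr5:35975265-35982561 showed the opposite arrangement. All 4 F members were higher in males, with log2 differences of 1.27 to 1.90, and all 4 R members were higher in females, with differences of -1.39 to -0.71. F probe A_30_P01021642 was at 9.69, 9.82, 10.15 and 9.97 in the wild-type and then the mutant males and at 7.92, 8.08, 7.79 and 8.24 in the females, and passed with a limma adjusted p of 0.000991. R probe A_30_P01021070 was at 13.26, 12.52, 12.76 and 13.14 in males and 14.30, 14.20, 14.17 and 14.59 in females, with an adjusted p of 0.00145. Of 178 intervals with 2 or more members in each orientation it was the 1 in which every member passed and the orientations opposed each other. In 4 of the 178 every member passed in the same direction. All 8 members of the chromosome 5 interval were well above background in all 8 samples. The interval was named through the genotype comparison, and these counts were added after its values were seen.

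In the intervals with the widest gaps, 1 or 2 members stood for each orientation. F and R medians were 3.81 and -0.05 in chr3:58118325-58136550, 3.35 and -0.30 in chr17:88225376-88238756, and -0.83 and 1.87 in chr10:116814196-116920696. In chr11:60728207-60745369, the single R probe, A_30_P01021628, had 2.61, while the single F probe was at background in all males.

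The effect of genotype was then compared between the sexes. No interval probe passed, while 55 of all kept probes did (0.190%), and at an unadjusted p under 0.05 there were 113 interval probes (2.28%, background 3.83%). Of these 75 were higher in the male pairs (1.51%, background 2.86%) and 38 lower (0.766%, background 0.970%). With 1 residual degree of freedom and opposite dyes on the 2 arrays of a sex, these p values say nothing of how far the pairs of a sex differ from each other. The closest was A_30_P01020751, an F probe of chr2:136327645-136341251, whose log2 ratios of mutant over wild type were -1.03 and -0.97 in the female pairs and 0.57 and 0.18 in the male pairs. The difference was 1.37 ± 0.20 (SE, limma adjusted p = 0.0575), and the second F member of that interval had 0.91.

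In chr3:87757295-87774970 the 5 F members had a median difference of 0.84 between the sexes. A_30_P01020627, with the smallest p of them, had 0.96 (limma adjusted p = 0.192), and A_30_P01033229 had 1.14 (adjusted p = 0.508). The rest of the 5 were A_30_P01018420 with 0.84, A_30_P01026280 with 0.15 and A_30_P01018307 with 0.12. A_30_P01020492 in chr11:95644899-95658549 R and A_30_P01022715 in chr6:145647711-145756861 F both had 0.90 (adjusted p = 0.244 and 0.345). The other R members of the chromosome 11 interval had -0.03, 0.03, 0.13 and 0.16. The other F members of the chromosome 6 interval had -0.02, 0.19, 0.28 and 0.70. Fat genes moved the same way as the named probes, and 9 of 9 measured passed this test. Their median log2 ratio was -1.61, -1.92, 1.93 and 0.53 on arrays 1 to 4. The log2 of their summed linear levels was 17.37 and 18.28 in wild-type females and 15.19 and 16.51 in mutant females. In males it was 14.66 and 16.84 in wild type and 16.81 and 17.21 in mutants. Cfd was the brightest fat gene in every sample and weighs most in this sum. Among 7 urothelial genes 1 passed, and their median ratio was -1.90, -1.59, 1.62 and -0.11. Of both lists Lep alone was not among the kept probes, and the part of these genes in the interval differences was not tested. In bulk tissue, a different number of cells of a type and a different amount of RNA per cell cannot be told apart.

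Long noncoding RNAs that the array carries under a gene name gave a measure beside the intervals. Of 64 listed genes 29 were measured, 10 were higher in males and 7 higher in females, and 0 passed for genotype. Over all kept probes 17.9% were higher and 24.2% lower in males, and 0.0207% passed for genotype. Neat1, the scaffold of nuclear paraspeckles, was 1.30 higher in males on the log2 scale, Kcnq1ot1, the antisense RNA of an imprinted domain, 1.22, and the small nucleolar RNA host gene Snhg15 1.91. Igf2os had -1.94, higher in females. Malat1, which localises to nuclear speckles, had a genotype log2 ratio of -0.34, the 1 of 29 with an unadjusted p under 0.05 by limma (0.0361). Such a p was seen for 4.51% of all kept probes.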

How the data were processed

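Per the file headers, the authors' files came from Agilent Feature Extraction (version 10.7.3.1 in the submitters' processing notes) on a design built on mm9. The deposited values are intensity: median spot and local background intensity per channel, and a processed signal already corrected for background and dye. The deposited marks (well above background, saturated, outlier) are other values, 1 for yes and 0 for no. The deposited value table holds log2 values, which matched log2 processed signal centred on each probe's median over the samples; its scale and centring are not given in the sources used here.

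Median intensities were corrected with normexp (offset 50) in limma 3.58.1 under R 4.3.3. Ratios were normalized by loess within arrays, with control and outlier spots at weight 0, and levels by Aquantile between arrays. Spots of a probe were averaged, and probes well above background in at least 4 of 8 channels were kept, each as its own item. Spots had a median of 97 to 105 in Cy3 (background 51 to 57) and of 220 to 245.5 in Cy5 (background 141 to 144), and the number of arrays limits the precision. One member was saturated in a sample.

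Genotype was tested with limma on 4 ratios with a dye term (2 residual degrees of freedom), sex on the array means, and sex by genotype on the ratios. Tests were 2-sided and Benjamini-Hochberg adjusted over all 28956 kept probes. The dye term passed for 69 members and had an unadjusted p under 0.05 for 956; ratios of arrays correlated by 0.338 and 0.356 where the dye of the mutant was the same and by -0.395 to -0.296 where it was opposite. The labels pair samples through the shared array, which is a block in the genotype and sex by genotype tests and the unit in the sex test. Same-numbered samples deviated together by 0.674 to 0.775, sex included. A fold written "at least" is against the higher of the dim samples' own signal and the lowest signal well above background on each array.

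Probes named in the text were chosen by fixed rules: the 8 smallest genotype p with one sign on 4 arrays, the 8 largest sex differences each way without overlap, the 4 smallest sex by genotype p, the 4 smallest genotype p on chromosome 5, and 6 intervals with F and R moving together and 4 with the widest gap. Chromosome 18 was left out of the names. The members, lists and rules were chosen with earlier results of these data known. The fits were tested on simulated data. No genome of the files' build was used, so no interval sequence or annotation is given. Plots used matplotlib 3.10.9 (Python 3.11.15).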

Additional observations from a re-analysis of the deposited data

Results flagged for a closer look

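In 3 of 50 groups of 4 samples checked, 1 sample lay far from the other 3 for its group's range; chance flags about 1 in 20 such groups. For A_30_P01033455 of chr6:83541250-83560425 F, wild-type replicate 1 was at 11.180 and the other wild-type samples at 10.74 to 10.80, while the mutant on the same array was also the highest of its group. For A_30_P01020518 of chr9:78104935-78116974 F, the wild-type female of replicate 2 was at 14.908 and the other females at 15.12 to 15.15, all above every male. For Pus1, wild-type replicate 3 was at 10.003 and the others at 10.34 to 10.39, all above every mutant.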

How the results depend on the processing

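The array is the replicate block in the genotype and sex by genotype fits and the unit in the sex fit. With samples fitted singly and no replicate block, the counts of interval probes past the threshold were 0 for genotype, 2672 for sex and 0 for sex by genotype. For genotype the count of 0 became 1 with median normalization within arrays and 1 without a filter on dim probes, and was 0 in all fits that left out a replicate. The sex count of 2220 ranged from 599 to 2110 when 1 replicate was left out, and from 1546 (3224 probes tested) to 2672 under the other alternatives. The share of sex calls higher in males was 57.2%; it was 42.9% among probes well above background in all 8 channels, so the direction of most sex calls turned there. Median scaling between arrays moved the median sex difference of all kept probes from -0.0914 to -0.207 and the share higher in males from 57.2% to 51.2% for interval probes and from 42.6% to 28.4% for all, so small sex differences depend on the scaling. The sex by genotype count of 0 became 4 with median normalization and 1 without the filter; leaving out a replicate was not run there because no residual degree of freedom remains. Pus1 kept its direction throughout, but missed the threshold at -3.89 (limma adjusted p = 0.136) on Agilent's processed signals and at -3.88 (0.315) in the authors' deposited table; without 1 replicate it was -2.999 to -2.918. Intervals with F and R members numbered 476, 291 when all 8 channels were required and 646 with at least 2. No named probe changed sign. Causes of these shifts were not tested, apart from the number of probes or samples in a fit. Signal over background limits the rest: 53.7% of the interval probes on the array were above it in no sample, and differences there were not detectable.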

Other observations

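The 8 probes highest in males were also compared within each sex, a step added after their values were seen. After each sex's mean was removed, the probes of chr1:183951156-183986156, chr3:34003359-34537330, chr10:116814196-116920696 and chr17:88225376-88238756 correlated with each other by 0.927 to 0.984 over the 8 samples. Those of chr3:58118325-58136550, chr9:27153416-27153677 and chr15:61984389-62102500 correlated by 0.904 to 0.959, and between these sets r ran from -0.326 to -0.0377. The chromosome 4 probe correlated by 0.65 to 0.724 with the second set and by -0.329 to -0.242 with the first. The log2 ratios on arrays 1 to 4 were 0.13, -0.77, -0.02 and 0.26 for the chromosome 1 probe and 0.12, -0.63, 0.02 and 0.15 for the chromosome 10 probe. They were 0.56, -0.68, 0.58 and -0.29 for the chromosome 3 probe A_30_P01017564 and 0.45, -0.83, 0.63 and -0.40 for the chromosome 15 probe. The points share arrays, dyes and samples, no p is given, and the sequences of these probes are not used here.

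Within the interval of chr19:23068397-23190256, both orientations also had like medians for sex by genotype, 0.45 over 4 F members and 0.43 over 10 R members, though 0 of the 14 passed. All 3 R members of chr13:108653722-108654406 were higher in males, with log2 differences of 1.47 to 1.69.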
